A study of Mus musculus with 4 samples.

Results

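The 29 genes described here make and regulate cholesterol: 20 enzymes from acetyl-CoA to cholesterol, 5 genes of the sensor that controls them, a sterol carrier gene and 3 targets of LXR, the oxysterol receptor. They were chosen by gene name, in pathway order, and all 29 were found among the 17568 genes of the deposited table. Msmo1 appears there under its older symbol, Sc4mol. Expression was measured by SOLiD RNA sequencing in cultured forelimbs taken from Swiss Webster mice, wild type, at embryonic stage E10.25 (31 to 34 somites). The control group was 2 libraries of cultured limbs whose agent is labelled only as control, and the treated group was 2 libraries of limbs cultured with cyclopamine, an inhibitor of the Hedgehog signal transducer Smoothened. All 4 libraries therefore share genotype, strain, age and a period of culture. The submitters call the libraries of a group biological replicates. The sources used here do not state the dose, the length of culture or whether the libraries came from separate litters. The p-values therefore measure only spread between these libraries, in limma largely a spread shared across genes.

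Cholesterol is built from acetyl-CoA by way of mevalonate, isoprenoids, squalene and lanosterol. Its enzymes are controlled together by SREBP2, a membrane-bound transcription factor that the escort protein SCAP carries out of the endoplasmic reticulum when sterols are low and that INSIG proteins hold back when sterols are high. The LXR receptors act in the other direction and switch on genes of sterol export and of receptor turnover when oxysterols are plentiful. Cholesterol is also part of Hedgehog biology: the ligand carries a cholesterol group, Smoothened binds sterols, and cyclopamine is itself a steroidal alkaloid. Some enzymes of the pathway are not analysed here.

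SREBP2 is known to bind sterol regulatory elements close to transcription start sites, commonly beside CCAAT boxes bound by NF-Y and GC boxes bound by Sp1. RefSeq start sites (GRCm38.p6) with the 250 bases upstream were matched for 24 of the 29 genes, and both strands were searched. The classic 10-base sterol regulatory element, with 1 mismatch allowed, was found upstream of 3 of the 24 genes (12.5%), namely Hmgcs1, Nsdhl and Srebf2, against 1.92% of 10738 expressed genes. CCAAT was found for 20 of 24 genes (83.3%) against 40.7% of expressed genes, and GGGCGG for 22 of 24 (91.7%) against 64.4%. The near matches read CTCACCCCAC in Hmgcs1, ATCACCCAAC in Nsdhl and ATCACCCCAT in Srebf2. These are letter matches in a short window and say nothing of binding, and a gene with several start sites had several windows. The 3 windows with a near match to the sterol element are shown first, then that of Insig1, which has a CCAAT box but no such match, and that of Abca1, an LXR target with neither. Each is written toward the start site on the gene's own strand, and capitals mark the near match to the sterol element and every CCAAT box (ATTGG where it lies on the opposite strand). The windows lie at chr13:119690101-119690350 (Hmgcs1, plus strand), chrX:72918271-72918520 (Nsdhl, plus strand), chr15:82147019-82147268 (Srebf2, plus strand), chr5:28071162-28071411 (Insig1, plus strand) and chr4:53159896-53160145 (Abca1, minus strand).
Hmgcs1: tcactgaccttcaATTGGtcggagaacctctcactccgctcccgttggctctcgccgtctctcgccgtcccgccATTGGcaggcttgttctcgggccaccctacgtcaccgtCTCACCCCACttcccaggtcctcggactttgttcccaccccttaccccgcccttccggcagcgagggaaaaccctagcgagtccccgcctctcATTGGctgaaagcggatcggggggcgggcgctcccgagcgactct
Nsdhl: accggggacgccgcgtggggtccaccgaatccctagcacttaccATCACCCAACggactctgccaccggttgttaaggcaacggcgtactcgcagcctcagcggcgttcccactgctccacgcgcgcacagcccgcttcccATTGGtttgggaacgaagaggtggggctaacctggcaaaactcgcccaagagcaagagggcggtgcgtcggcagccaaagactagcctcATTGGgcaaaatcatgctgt
Srebf2: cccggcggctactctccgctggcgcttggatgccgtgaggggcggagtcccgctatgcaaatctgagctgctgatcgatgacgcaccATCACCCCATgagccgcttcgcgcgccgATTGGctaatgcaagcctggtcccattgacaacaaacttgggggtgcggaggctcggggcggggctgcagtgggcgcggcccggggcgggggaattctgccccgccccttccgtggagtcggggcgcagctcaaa
Insig1: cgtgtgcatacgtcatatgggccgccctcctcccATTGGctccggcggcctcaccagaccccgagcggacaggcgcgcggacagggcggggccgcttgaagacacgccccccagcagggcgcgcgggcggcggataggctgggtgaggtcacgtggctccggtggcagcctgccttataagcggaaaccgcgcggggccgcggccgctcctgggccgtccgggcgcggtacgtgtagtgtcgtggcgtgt
Abca1: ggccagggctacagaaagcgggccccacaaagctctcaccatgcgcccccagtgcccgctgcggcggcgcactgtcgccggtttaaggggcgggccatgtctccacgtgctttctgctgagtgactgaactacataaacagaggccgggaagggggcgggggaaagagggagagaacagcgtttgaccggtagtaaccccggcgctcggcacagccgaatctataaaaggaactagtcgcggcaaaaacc
The near match spans positions -138 to -129 from the start site in Hmgcs1, -206 to -197 in Nsdhl and -163 to -154 in Srebf2. Hmgcs1 has 3 CCAAT boxes in its window, Nsdhl has 2, and Srebf2 and Insig1 have 1 each.

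For these genes, culture with cyclopamine went with a small difference, mostly in 1 direction. Cyclopamine was the only treatment, so effects of blocked Hedgehog signalling and other effects of the drug cannot be told apart. With cyclopamine, 26 of the 29 genes had a higher mean level and 3 a lower one, where 51% of the 13568 genes tested were higher. The median log2 fold change was 0.46 over the 29 genes and 0.005 over all genes tested. Both cyclopamine libraries lay above both controls for 21 of the 29 genes, against 16.8% of all genes tested, and for 0 of the 29 did both lie below, against 15.8%. None passed the threshold, an adjusted p of 0.05 in limma over all genes (0 of 29, smallest adjusted p = 0.215), where 0.28% of all genes did and 0.0442% were called higher. At an unadjusted p under 0.05 in limma, 16 of the 29 genes were higher and 0 lower, against 3.04% and 2.78% of all genes. That count was 2 without control 1 (4.22% of all genes) and 6 without the intensity trend (3.35%). Counts recovered from the table gave 0 of 29 called by the quasi-likelihood test of edgeR (smallest adjusted p = 0.255, against 0.0442% of all genes called higher) and 0 by DESeq2 (smallest adjusted p = 0.219, against 0.0737%). In whole tissue, a change in the number of expressing cells and a change in RNA per cell cannot be told apart.

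The control libraries stood apart from each other in these genes. Control 2 held at least 1.2 times the level of control 1 for 18 of the 29 genes, against 21.7% of all genes tested, and the median log2 gap between the controls was 0.55. The cyclopamine libraries lay within 1.2 times of each other for 25 of 29 genes, where 60.2% of all genes did, with a median log2 gap of 0.04. Control 1 was the lowest of the 4 libraries for 24 of the 29 genes, and the gap between controls was larger in size than the difference between conditions for 20 of 29, a share near the 62.9% of all genes tested. The order control 1, then control 2, then both cyclopamine libraries held for 19 of 29 genes and for 8.25% of all genes. Without control 1 the median log2 fold change was 0.22 and 0 of 29 genes were called, against 0.295% of all genes called higher. Without control 2 it was 0.78 and 8 were called higher, against 0.176% of all genes: Acat2, Mvd, Idi1, Tm7sf2, Msmo1, Nsdhl, Insig1 and Stard4. With a block for the replicate number limma called 17 of 29 higher, against 1.37% of all genes. The labels give no meaning to that number beyond the name, and the p-values of that fit rest mostly on spread shared across genes. For the 29 genes a lower library 1 was seen in the controls (median log2 gap 0.55) and hardly with cyclopamine (0.04). Gli1, the standard readout of Hedgehog signalling, did not show the gap between controls and measured 56.2 and 56.7 CPM (counts per 1000000 of the effective library size) in the controls and 8.05 and 4.70 CPM with cyclopamine.

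**Figure D1:**
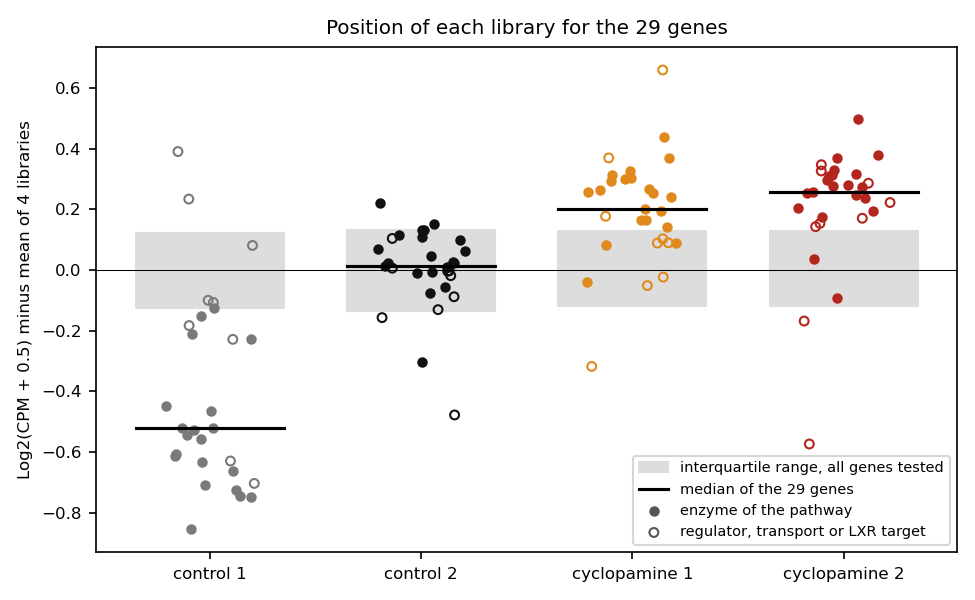
Each point is 1 gene in 1 library, as its log2(CPM + 0.5) minus its mean over the 4 libraries; filled points are the 20 enzymes, open points the other 9 genes, black bars the median of the 29 and grey bands the interquartile range of all genes tested. The median was -0.52 and 0.01 for the controls, numbered 1 and 2, and 0.20 and 0.26 for the cyclopamine libraries.

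The first enzymes supply building blocks for the pathway. Acly, the citrate lyase that makes acetyl-CoA in the cytosol, stood at 528 and 762 CPM in control limbs and at 804 and 872 CPM under cyclopamine. Acat2, the cytosolic thiolase that joins acetyl-CoA units, stood at 115 and 209 CPM in control limbs and at 243 and 240 CPM under cyclopamine. For both genes the groups did not overlap, but control 2 lay closer to the cyclopamine libraries than to control 1. The log2 fold change was 0.40 (SE 0.20) for Acly and 0.64 (SE 0.21) for Acat2, with limma adjusted p of 0.878 and 0.504. Acat3, a close copy of Acat2, was near the floor of detection at 0.413 to 1.40 CPM.

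Among the mevalonate genes, the large differences were those of Hmgcs1 and Mvd. Hmgcs1 (mm10 chr13:119690379-119708260, plus strand), the synthase that commits acetyl-CoA units to the pathway, stood at 523 and 803 CPM in control limbs and at 975 and 979 CPM under cyclopamine. Its treated libraries were nearly equal and both stood above control 2 (log2 fold change 0.59, SE 0.21, 95% interval 0.14 to 1.04, limma adjusted p = 0.612). Mvd, the decarboxylase that yields isopentenyl diphosphate, stood at 48.2 and 77.4 CPM in control limbs and at 89.4 and 94.3 CPM under cyclopamine (0.58, SE 0.19, limma adjusted p = 0.496). The kinases between them differed less. Mvk stood at 19.5 and 22.8 CPM (controls) against 22.2 and 27.8 CPM (cyclopamine), so that the groups overlapped, and Pmvk stood at 17.3 and 20.3 CPM (controls) against 22.6 and 20.7 CPM (cyclopamine). Their 95% intervals, -0.18 to 0.65 for Mvk and -0.21 to 0.62 for Pmvk on the log2 scale, include 0 and also the difference seen for Hmgcs1.

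In the isoprenoid step the groups separated for Idi1 and Fdps and overlapped for Ggps1. Idi1, the isopentenyl diphosphate isomerase, stood at 138 and 249 CPM in control limbs and at 315 and 268 CPM under cyclopamine (log2 fold change 0.64, SE 0.22). Fdps, which makes farnesyl diphosphate, stood at 179 and 277 CPM in control limbs and at 328 and 297 CPM under cyclopamine (0.49, SE 0.19). For both, the cyclopamine libraries stood above both controls. Ggps1, which diverts farnesyl diphosphate toward protein prenylation and away from sterols, stood at 44.1 and 52.8 CPM (controls) against 51.0 and 45.1 CPM (cyclopamine). Its groups overlapped fully, with a log2 fold change of -0.01 (95% interval -0.36 to 0.34). Limma adjusted p was 0.526 for Idi1 and 0.673 for Fdps. Fdps shares 1124 exon bases (26.7% of its own) with an annotated gene model on the same strand, Gm43738, so its reads may be split.

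Of the enzyme steps, the squalene step was the one where control 2 came closest to the treated libraries. Fdft1, the squalene synthase, stood at 186 and 251 CPM in control limbs and at 291 and 302 CPM under cyclopamine (0.46, SE 0.17, limma adjusted p = 0.634). Sqle, the squalene epoxidase, stood at 156 and 289 CPM in control limbs and at 284 and 294 CPM under cyclopamine. Lss, the lanosterol synthase, stood at 72.8 and 116 CPM in control limbs and at 112 and 127 CPM under cyclopamine. In Sqle and Lss control 2 sat between the treated libraries, so the groups overlapped. The log2 fold change of Sqle was 0.44 (SE 0.22) with all libraries, -0.0017 without control 1 and 0.88 without control 2. That of Lss was 0.37 (SE 0.19), and 0.03 without control 1. Fdft1 shares 774 exon bases with Ctsb on the opposite strand, a gene at 156 to 218 CPM, and the sources used here do not say if strand was used in counting.

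The 8 enzymes that turn lanosterol into cholesterol differed in the same direction. All 8 had both cyclopamine libraries above both controls (16.8% of all genes), and all 8 had an unadjusted p under 0.05 in limma (3.04% of all genes), with a median log2 fold change of 0.55. In limma without the intensity trend, 4 of the 8 were higher at such a p (3.35% of all genes). Without control 1 only Tm7sf2 and Ebp had an unadjusted p under 0.05, 2 of the 8, against 4.22% of all genes. The median was 0.28 without control 1 and 0.83 without control 2. Cyp51, the lanosterol demethylase, stood at 239 and 351 CPM in control limbs and at 415 and 407 CPM under cyclopamine (0.50, SE 0.18). Tm7sf2 (mm10 chr19:6062821-6068373, minus strand), a sterol reductase that acts after it, stood at 23.5 and 37.2 CPM in control limbs and at 48.5 and 55.6 CPM under cyclopamine. This was the largest difference among the 29 genes, at a log2 fold change of 0.80 (SE 0.20, 95% interval 0.37 to 1.23, limma adjusted p = 0.215), and it was 0.47 without control 1. Tm7sf2 shares 532 exon bases (12.1% of its own) with Vps51 on the same strand, and Vps51 itself stayed between 30.6 and 34.4 CPM.

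Msmo1, Nsdhl and Hsd17b7 together strip methyl groups from the sterol ring. Nsdhl lies at chrX:72918557-72958514 on the plus strand (mm10). Msmo1, the methylsterol oxidase, measured 124 and 243 CPM in the controls and 291 CPM in each cyclopamine library (log2 fold change 0.74, SE 0.23, limma adjusted p = 0.406). Nsdhl, the dehydrogenase, stood at 85.8 and 143 CPM in control limbs and at 174 and 183 CPM under cyclopamine (0.68, SE 0.20, limma adjusted p = 0.323). Hsd17b7, the ketoreductase, stood at 29.8 and 50.4 CPM in control limbs and at 51.5 and 57.3 CPM under cyclopamine (0.48, SE 0.21, limma adjusted p = 0.802). In all 3 the treated libraries were close together, and control 1 was far below the rest. Msmo1 had the widest gap between controls of the 29 genes, at 1.96 times.

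The last steps included the exception to the control pattern. Ebp, the sterol isomerase, stood at 13.8 and 12.4 CPM in control limbs and at 18.5 and 17.7 CPM under cyclopamine (log2 fold change 0.45, SE 0.21, limma adjusted p = 0.830). Here control 1 was not the lower control, and the log2 fold change was 0.53 without control 1 and 0.38 without control 2. Sc5d, the desaturase, stood at 63.7 and 88.2 CPM in control limbs and at 110 and 114 CPM under cyclopamine (0.57, SE 0.17, limma adjusted p = 0.333). Dhcr7, which carries out the final reduction to cholesterol, stood at 82.6 and 122 CPM in control limbs and at 143 and 146 CPM under cyclopamine (0.52, SE 0.18, limma adjusted p = 0.542). For both, the treated libraries were nearly equal and stood above control 2.

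**Figure D2:**
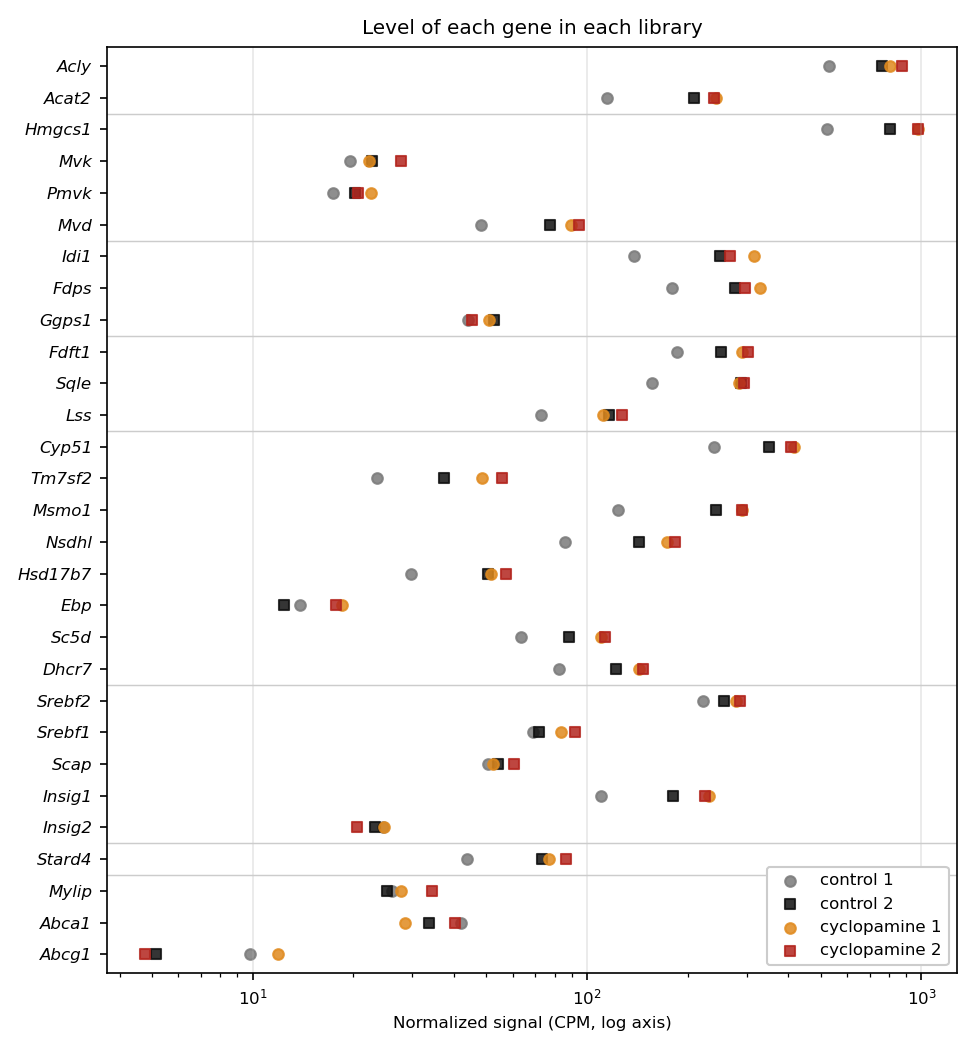
Level of each gene in each library, in CPM on a log axis, in pathway order from top to bottom with lines between steps. For most enzymes control 1 is leftmost and the cyclopamine libraries nearly coincide, as for Msmo1 at 291 CPM in each; Ebp, Insig2 and the LXR targets do not follow that order.

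Of the 5 sensor genes, Insig1, Srebf2 and Srebf1 had both cyclopamine libraries above both controls, and Insig2 and Scap had overlapping groups. Insig1 (mm10 chr5:28071363-28078662, plus strand), which retains the SREBP2 complex in the endoplasmic reticulum and is itself an SREBP target, stood at 110 and 180 CPM in control limbs and at 232 and 225 CPM under cyclopamine. Both treated libraries stood above control 2 (log2 fold change 0.70, SE 0.19, 95% interval 0.29 to 1.11, limma adjusted p = 0.289). Insig2, its paralog, stood at 24.6 and 23.1 CPM in control limbs and at 24.7 and 20.6 CPM under cyclopamine, and its groups overlapped (-0.08, 95% interval -0.48 to 0.32). The intervals of the paralogs overlap, and the difference between them was not tested.

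The genes of the SREBP transcription factors also had both cyclopamine libraries above both controls. Srebf2, which encodes SREBP2, stood at 222 and 257 CPM in control limbs and at 279 and 287 CPM under cyclopamine (log2 fold change 0.25, SE 0.15, limma adjusted p = 0.97). Srebf1, which encodes the related factor of fatty acid synthesis, stood at 69.1 and 71.7 CPM in control limbs and at 83.6 and 91.7 CPM under cyclopamine (0.31, SE 0.15, limma adjusted p = 0.863). Srebf1 differed from the enzymes in that its controls were nearly equal, so that its log2 fold change was 0.29 without control 1 and 0.34 without control 2. The enzyme median was 0.22 and 0.81 in the same fits. Scap stood at 50.6 and 54.1 CPM (controls) against 52.3 and 60.4 CPM (cyclopamine), with overlapping groups (0.10, 95% interval -0.23 to 0.44). Stard4, a soluble carrier that moves cholesterol between membranes and an SREBP target, stood at 43.8 and 73.2 CPM in control limbs and at 77.1 and 86.8 CPM under cyclopamine (0.52, SE 0.20, limma adjusted p = 0.661).

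The 3 LXR targets had no shared direction. Mylip, a ubiquitin ligase that degrades lipoprotein receptors, stood at 26.1 and 25.2 CPM in control limbs and at 27.7 and 34.4 CPM under cyclopamine (0.26, SE 0.18, limma adjusted p = 0.991). Abca1, a cholesterol exporter, stood at 42.1 and 33.6 CPM (controls) against 28.6 and 40.3 CPM (cyclopamine), and its groups overlapped (-0.15, 95% interval -0.56 to 0.27). Abcg1, a second exporter, stood at 9.80 and 5.14 CPM (controls) against 11.9 and 4.78 CPM (cyclopamine). Its libraries followed the replicate number and not the treatment. Its log2 fold change of 0.09 had the widest 95% interval of the 29 genes, -0.70 to 0.88. All 3 were lower in control 2 than in control 1, as was the enzyme Ebp.

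**Figure D3:**
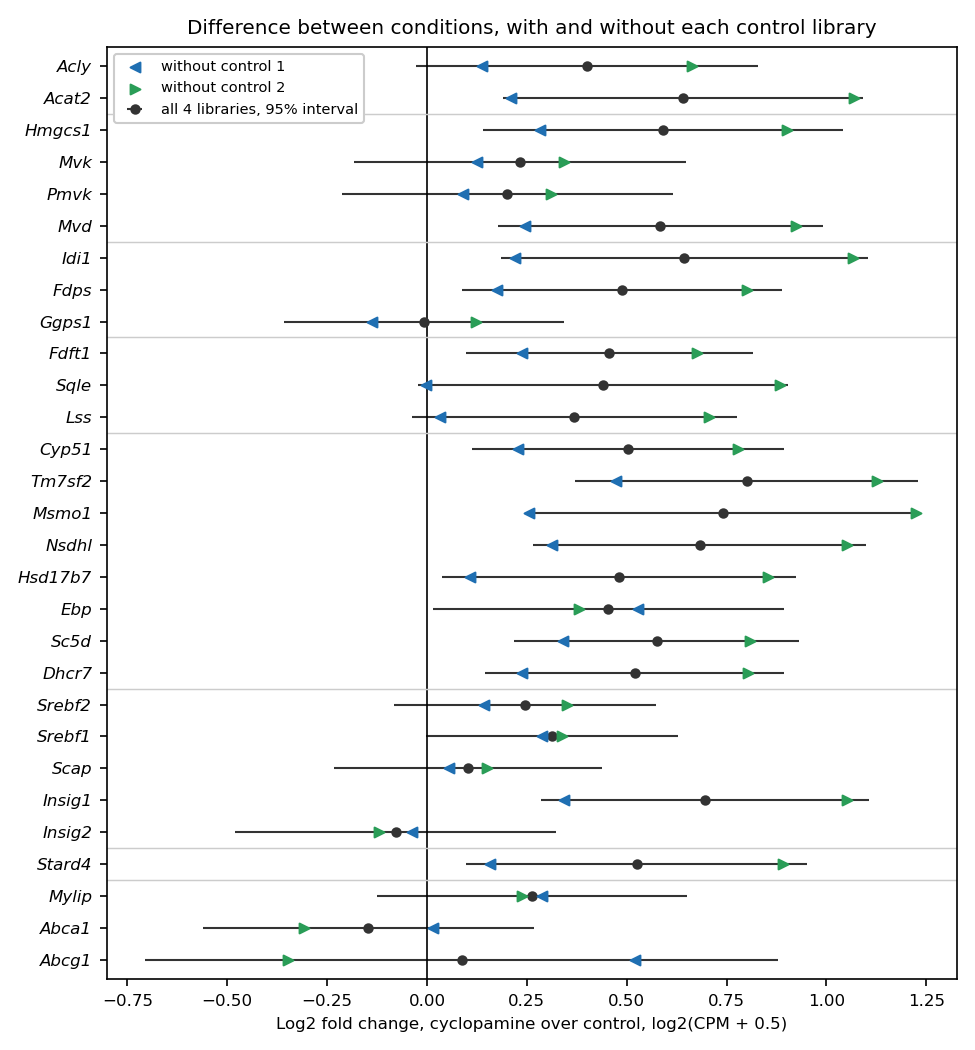
Log2 fold change of each gene, cyclopamine over control, on the log2(CPM + 0.5) scale, with its 95% interval in limma (black) and the values without control 1 (blue) and without control 2 (green). The interval lies above 0 for 16 of the 29 genes; every enzyme but Ebp has a smaller value without control 1 than without control 2, and Insig2, Mylip, Abca1 and Abcg1 also have the opposite order.

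Per length of annotated exons (CPM per kb of merged GENCODE vM21 exons), levels spanned a wide range within the pathway. Hmgcs1 was highest, at 144 ± 43.1 CPM per kb in the controls and 213 ± 0.607 with cyclopamine (SD, n = 2). Acly followed at 122 ± 31.3 and 159 ± 9.14 CPM per kb (SD, n = 2). The ranges of Hmgcs1 and Acly overlapped in the controls and not with cyclopamine, but within every library Hmgcs1 was the higher. Cyp51, Acat2, Idi1, Fdps and Fdft1 came next, between 51.7 and 66.8 CPM per kb in the controls, and their control ranges overlapped. Insig1 was at 47.0 ± 16.1 CPM per kb in the controls (SD, n = 2), against 6.87 ± 0.288 for Insig2. The lowest were Abca1 (3.65 ± 0.581) and Abcg1 (1.02 ± 0.451 CPM per kb in the controls, SD, n = 2). The 29 genes together made up 0.326% and 0.492% of the summed signal in the controls, and 0.548% and 0.585% in the cyclopamine libraries.

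Genes of fatty acid synthesis, many of them targets of the related factor SREBP1, resembled the cholesterol enzymes. Of 16 genes, 14 were higher and 2 lower, with a median log2 fold change of 0.36, and 11 had both cyclopamine libraries above both controls (16.8% of all genes). None was called in limma over all genes (0 of 16), and 8 had a higher level at an unadjusted p under 0.05 (3.04% of all genes), or 2 without control 1. The replicate block called 7 of the 16 higher, against 1.37% of all genes. Acss2, which makes acetyl-CoA from acetate, stood at 16.6 and 20.1 CPM in control limbs and at 41.7 and 30.5 CPM under cyclopamine. Its controls were close together and both treated libraries were well above them (0.94, SE 0.20, limma adjusted p = 0.0761), a larger difference than that of any of the 29 genes. In fits with all libraries, Acss2 was called by DESeq2 (adjusted p = 0.0284), and in limma with robust empirical Bayes and with the replicate block. It was not called by the quasi-likelihood test of edgeR (adjusted p = 0.0716). Its log2 fold change was 0.81 without control 1 and 1.08 without control 2. It was 0.72 without cyclopamine 1 and 1.17 without cyclopamine 2. Scd1, a fatty acid desaturase, stood at 258 and 378 CPM in control limbs and at 490 and 480 CPM under cyclopamine (0.64, SE 0.19, limma adjusted p = 0.334). Lpin1, a phosphatidate phosphatase, stood at 47.8 and 55.0 CPM in control limbs and at 71.8 and 69.1 CPM under cyclopamine (0.45, SE 0.16, limma adjusted p = 0.542). Without control 1 the list's median was 0.26, and without control 2 it was 0.48.

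Other sterol genes, outside synthesis, stayed near the median of all genes. Among 18 genes of sterol sensing and protein turnover the median log2 fold change was 0.04, with 0 called in limma and 0 at an unadjusted p under 0.05. Of these, Mbtps2, which encodes the second of the proteases that release SREBPs, stood at 57.9 and 70.9 CPM (controls) against 51.4 and 54.6 CPM (cyclopamine) (-0.27, SE 0.16). Rnf139 (0.25, SE 0.16) and Rnf145 (0.17, SE 0.15), ubiquitin ligase genes, had the next smallest p. Among 16 genes of sterol uptake, transport and storage the median was 0.06, with 0 called in limma and 1 at an unadjusted p under 0.05. That was Soat1, which esterifies cholesterol for storage, at 118 and 110 CPM in control limbs and at 90.6 and 84.9 CPM under cyclopamine (-0.37, SE 0.15, limma adjusted p = 0.683). Tmem97 (-0.32, SE 0.16), a sterol-responsive membrane protein gene, and Npc2 (0.23, SE 0.16), a lysosomal cholesterol carrier gene, followed.

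The branches that use isoprenoids or oxidise sterols showed no common shift. The median was 0.04 over 11 genes of isoprenoid use and -0.001 over 5 tested genes of sterol oxidation, with 0 called in limma and 0 at an unadjusted p under 0.05 in either. Pdss1, which makes the side chain of coenzyme Q, stood at 8.56 and 9.04 CPM in control limbs and at 5.13 and 6.56 CPM under cyclopamine (-0.56, SE 0.26, limma adjusted p = 0.857). Fnta and Fntb, the subunits of farnesyltransferase, had log2 fold changes of 0.27 (SE 0.15) and -0.13 (SE 0.16). Cyp7b1, an oxysterol hydroxylase gene, was low in every library, at 0.516 and 1.91 CPM in control limbs and at 1.81 and 2.84 CPM under cyclopamine (0.83, SE 0.47). Cyp46a1 (-0.48, SE 0.45) and Hsd3b7 (0.40, SE 0.27) were also low.

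**Figure D4:**
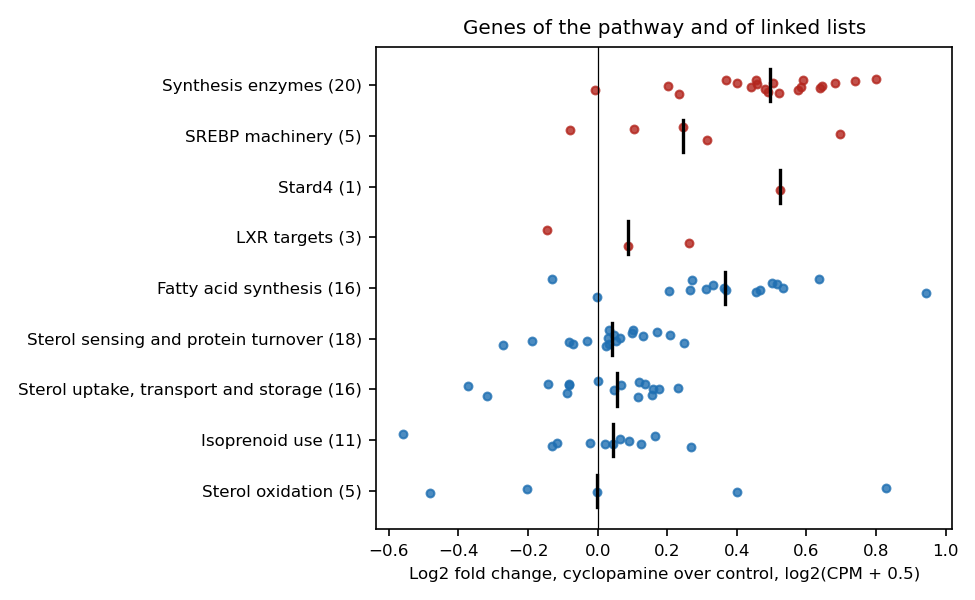
Log2 fold change of each tested gene, cyclopamine over control, on the log2(CPM + 0.5) scale, for the cholesterol genes (red) and linked lists (blue), with the number of genes in parentheses and black bars at medians. The enzymes (median 0.50) and the fatty acid genes (0.36) lie mostly to the right of 0, while the medians of the other blue lists lie between -0.001 and 0.06.

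Whole-library facts bear on these values. Total reads were 9779589 in control 1, the shallowest library, and 12010965 to 13555492 in the others; the 29 genes had 59 to 12358 reads each, and all passed the filter of a mean of 1 CPM. Forelimb identity was plain, with Tbx5 at 193 to 226 CPM against at most 9.90 for Tbx4 and 2.35 for Pitx1, hindlimb genes. Limma called Gli1 lower with cyclopamine (log2 fold change -3.10, SE 0.23). Cyclopamine 2 was high in the 5 genes of the hepatocyte list, led by Afp (466 CPM) and Alb (139 CPM). They summed to 652 CPM there, to 3.63 in cyclopamine 1, and to 19.7 and 31.4 in the controls. The liver makes cholesterol, but the tissue these transcripts came from was not tested. Without cyclopamine 2 the median log2 fold change of the 29 genes was 0.44. In cyclopamine 1, where Alb was at 0.552 CPM and Ttr at 0.237 CPM, the enzymes summed to 4787 CPM, against 4839 in cyclopamine 2, 4178 in control 2 and 2690 in control 1. Of 9 tested neural genes limma called 7 lower with cyclopamine (sums of the list 145 and 177 CPM against 95.8 and 95.4). Of 5 erythroid genes all were higher and 0 called in limma (sums 1304 and 605 CPM against 2133 and 1252). Summed levels were 1173 and 1225 CPM against 1287 and 1412 for forelimb mesenchyme, 298 and 319 against 330 and 391 for endothelium, and 14.8 and 15.1 against 16.9 and 23.01 for macrophages. They were 371 and 290 against 371 and 279 for ectoderm, and 42.2 and 78.0 against 66.7 and 74.1 for myoblasts. Limma also called Fgf8 of the ectoderm list lower and Gpnmb of the macrophage list higher. The mesenchyme, endothelium and macrophage sums follow the order of the libraries seen for the enzymes. In the macrophage list Gpnmb (0.206 and 0.882 CPM against 4.97 and 4.29) sets that order only in part. Gpnmb was higher in cyclopamine 1 than in cyclopamine 2, the reverse of the sums. In the mesenchyme list Prrx1 (560 and 624 CPM against 645 and 783) sets the order within each group only. Of the 7 mesenchyme genes, 5 had both cyclopamine libraries above both controls (16.8% of all genes) and 1 had both below (15.8%). The part of all these lists in the result was not tested.

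In the authors' deposited table, 0 of the 29 genes had a false discovery rate under 0.05, where 0.455% of all genes listed there did. Its log2 fold change is above 0 for 26 of the 29 genes, with a median of 0.44, and its p-value is under 0.05 with a higher level for 14 of 29, against 2.88% of all its genes. The smallest false discovery rate among them in the authors' deposited table is 0.117, for Tm7sf2 (log2 fold change 0.77), followed by 0.239 for Insig1 (0.65) and 0.276 for Sc5d (0.56). An exact permutation of 2 libraries against 2 cannot give a two-sided p below 0.333, so every p here rests on the spread shared across genes.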

How the data were processed

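RNA was sequenced from 4 libraries of cultured mouse forelimb, 2 per condition, grouped by their titles. The submitters' processing notes name the build mm10 and, for software, HTSeq 0.5.4p5, edgeR 3.4.2, TopHat2 2.0.9, SAMtools and Bowtie, without saying what each did; the sources used here do not give the annotation or the strand setting. The deposited table holds a normalized signal, which the authors put on a scale of counts per 1000000 (CPM) relative to an effective library size. Every value was a whole multiple of 1 read (100% within 0.01), so reads were recovered. The authors' deposited comparison gives log2 fold changes, mean log2 CPM and p-values with a false discovery rate, and its headers name no test.

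Genes averaging 1 CPM or more were fitted with limma 3.58.1 (R 4.3.3) after a log2(CPM + 0.5) transform, using the intensity trend without covariates. Fold changes are on that scale, which understates change in low genes. Two-sided p-values were adjusted by Benjamini and Hochberg's method across 13568 genes (threshold 0.05). The procedure was tested on simulated data with planted changes larger than any of the 29 genes showed, and with no library set apart. That test does not show how differences of their size are recovered. Alternatives were edgeR 4.0.16 and DESeq2 1.42.0 on recovered reads, other pseudocounts, filters, scalings and variance models, a replicate block, and fits without each library. A floor of 3 reads equals 0.22 to 0.31 CPM by library. Lengths, overlaps and gene positions come from GENCODE vM21 (mm10), promoter windows from RefSeq (GRCm38.p6). All 29 genes are named, and from each linked pathway list those past the threshold and the 3 with the smallest p. Of the Hedgehog targets, used to check the labels, Gli1 is given and the rest are not reported here. The 29 genes and all lists were chosen with earlier results of these data known. Single marker genes, and the genes Acat3, Vps51, Ctsb and Gm43738, which copy or overlap members, were named after their values were seen. The erythroid gene Hba-a1 found no row in the table.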

Additional observations from a re-analysis of the deposited data

How the results depend on the processing

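With 0 of 29 genes called in limma (16 at an unadjusted p under 0.05, 2 without control 1 and 6 without the trend), the count was also 0 with pseudocounts of 0.1 and 1, without the filter, with a filter at 5 CPM, without the trend, with robust empirical Bayes, with either other scaling, and in edgeR and DESeq2. Over the fits that left out a library, which assume that a lone library varies like the others, it ran from 0 (without control 1) to 8 (without control 2), with 3 (Tm7sf2, Msmo1 and Nsdhl) without cyclopamine 1 and 1 (Idi1) without cyclopamine 2, against 0.5% and 0.207% of all genes called higher in the last 2 fits. Pairing libraries by number, a number without a stated litter or day, gave 17 of 29 higher with the replicate block, against 1.37% of all genes. The p-values of that fit rest mostly on spread shared across genes. Deviations from group means correlated at 0.27 between libraries of the same number, over 13568 genes. With 2 libraries per group, this fixes the value between libraries of unlike number at -0.27, which adds no second observation. The median of 0.46 ran from 0.22 to 0.78 over the fits that left out a library and from 0.44 to 0.47 in the other fits. Both cyclopamine libraries above both controls held for 21 genes, and for 13 when a margin of 1.1 times was asked. The share of all genes at that margin was not computed, so the 13 cannot be set against it. Leaving out a library can only keep or raise the count of 21, and it then ran from 21 to 26. Over all genes, the 38 calls became 2 without the filter, 0 without the trend (837 at an unadjusted p under 0.05; edgeR 40, DESeq2 52), 20 with library total scaling, 351 with the replicate block and 43 to 122 without a library. In fits without a library, signs turned for Ggps1 (-0.14 to 0.12), Sqle (-0.0017 to 0.88), Insig2 (-0.21 to 0.050), Abca1 (-0.39 to 0.10) and Abcg1 (-0.53 to 0.70). The cause was not tested. Depth limits Abcg1 most, with 59 reads in its lowest library.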
